A study of Homo sapiens with 12 samples.

Results

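The 9 genes described here encode the enzymes that close squalene epoxide into lanosterol and carry lanosterol on towards cholesterol: LSS, CYP51A1, TM7SF2, LBR, MSMO1, NSDHL, HSD17B7, EBP and DHCR7. They were chosen by name for their place in the pathway, with earlier results of these data known. They make up 9 of the 16389 genes in the count table. RNA-seq was performed on HepG2, a human liver cancer cell line, in 4 groups of 3 libraries. LG cells were kept in medium with 5.5 mM glucose and HG cells in medium with 20 mM glucose, in both cases for 48 h. LGV and HGV cells came from the same media and received 1 mM valproic acid (VPA), a histone deacetylase inhibitor, for another 12 h. Whether LG and HG cells were also kept for these 12 h is not stated. If they were not, VPA and time in culture cannot be told apart in the VPA contrasts. All groups were derived from 1 cell line, with no primary hepatocytes, and no label states that replicates were separate cultures, so that the p-values given here measure only the spread between these libraries.

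Cholesterol synthesis starts from acetyl-CoA and passes through mevalonate and squalene to lanosterol, the first sterol. The enzymes that follow sit in the membrane of the endoplasmic reticulum. They remove methyl groups at C14 and C4, move a double bond in the second ring and reduce the remaining double bonds. In liver cells the genes of the pathway are known targets of SREBP-2, a transcription factor that is held back by sterols and released when they run low. The chain runs from LSS (lanosterol synthase) to CYP51A1 (the C14 demethylase) and then to the C14 reductases TM7SF2 and LBR. MSMO1 (the C4 methyl oxidase), NSDHL (the C4 decarboxylase) and HSD17B7 (the C3 ketoreductase) follow, and EBP (the sterol isomerase) and DHCR7 (the 7-dehydrocholesterol reductase) act later. SC5D, which also acts on these sterols, was taken separately.

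The libraries held between 29798442 and 45572694 counted reads. Levels are given as CPM, the reads of a gene relative to the total of its library, after TMM scaling over the 12 libraries, and log2 fold changes come from edgeR's quasi-likelihood test of the 2 groups named, with the false discovery rate (FDR) over all genes tested. A gene was called higher or lower at FDR ≤ 0.05. ALB, the albumin gene of hepatocytes, reached between 18950 and 29440 CPM in these cells. The summed level of 8 hepatocyte markers ranged from 44230 to 50430 CPM in LG, from 44280 to 52820 CPM in HG, from 34480 to 35430 CPM in LGV and from 39020 to 54060 CPM in HGV. Of 9 markers of fibroblasts, endothelium and blood cells, COL1A1, VWF and CDH5 were in the table, and together they ranged from 2.48 to 4.17 CPM in LG, HG and LGV and from 6.09 to 6.47 CPM in HGV. The part of these markers in the results was not tested. In such bulk libraries fewer cells of a type and less RNA per cell cannot be told apart.

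All 9 genes had a positive log2 fold change in HG against LG, with a median of 0.44 against 0.011 over all genes tested. MSMO1, DHCR7, TM7SF2, LSS and NSDHL rose, which makes 5 of 9 members called higher where 12.0% of all genes tested were, and 0 of 9 called lower where 12.7% were. The HG libraries lay entirely above the LG libraries for 6 of the 9 genes, EBP being the other one, and this held for 19.3% of all genes. None of the 9 lay entirely below, against 21.8% of all genes. With VPA present the same medium contrast, HGV against LGV, gave 5 of 9 genes higher (21.2% of all genes) and 0 lower (19.5% of all genes), and the 5 were again MSMO1, LSS, TM7SF2, DHCR7 and NSDHL. These medium contrasts share no library.

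VPA gave a mixed picture. In LG medium MSMO1, HSD17B7 and LBR rose (3 of 9, against 21.7% of all genes) and EBP fell (1 of 9, against 19.9%), with a median log2 fold change of 0.11 over the 9 genes and -0.0057 over all genes. In HG medium LBR and TM7SF2 rose (2 of 9, against 25.8%) and EBP fell (1 of 9, against 20.2%), with medians of 0.13 and 0.025. These member shares lie near those of all genes. Each VPA contrast shares its untreated libraries with HG against LG, so the values of these comparisons are set side by side without a test of their likeness.

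**Figure D1:**
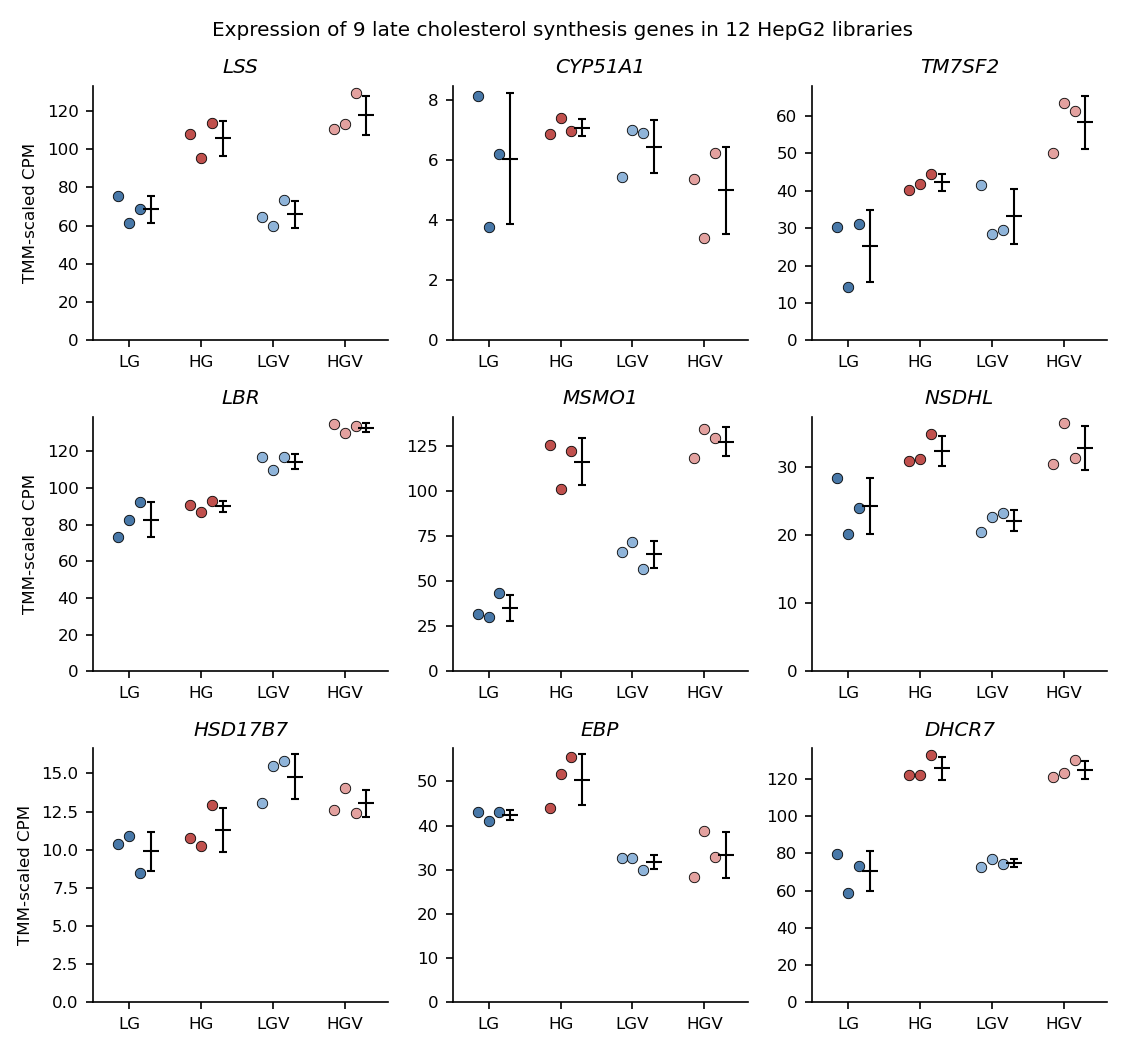
TMM-scaled CPM of each of the 9 genes in the 12 libraries, with 1 panel per gene in pathway order and the groups LG, HG, LGV and HGV on the x axis. Each point is a library, the horizontal mark is the group mean and the bar is 1 SD (n = 3), and each y axis starts at 0. MSMO1 stands at 30.4 to 43.2 CPM in LG and at 101 to 125 CPM in HG, whereas EBP is lower in both VPA groups.

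The promoters of 7 of these genes are shown: those of the 5 genes called higher in both medium contrasts, MSMO1, DHCR7, TM7SF2, LSS and NSDHL, and those of LBR and EBP, called in both VPA contrasts. They are RefSeq windows of assembly GRCh38.p14, each from 250 bases before to 50 bases after an annotated start, printed 5′ to 3′ on the gene's own strand. Capitals mark CCAAT or its reverse complement ATTGG, the letters that nuclear factor Y is known to bind. The windows lie at chr4:165327419-165327718 (plus strand, MSMO1), chr11:71448344-71448643 (minus strand, the first of 2 windows for DHCR7), chr11:65111622-65111921 (plus strand, TM7SF2), chr21:46228725-46229024 (minus strand, LSS), chrX:152830813-152831112 (plus strand, NSDHL), chr1:225428772-225429071 (minus strand, LBR) and chrX:48521558-48521857 (plus strand, EBP).
MSMO1: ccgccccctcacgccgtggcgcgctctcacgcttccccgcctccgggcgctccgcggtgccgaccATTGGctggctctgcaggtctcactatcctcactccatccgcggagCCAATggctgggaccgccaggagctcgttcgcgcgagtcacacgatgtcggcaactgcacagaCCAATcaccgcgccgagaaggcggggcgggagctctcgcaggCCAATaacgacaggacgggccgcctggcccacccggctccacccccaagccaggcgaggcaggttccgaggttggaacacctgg
DHCR7: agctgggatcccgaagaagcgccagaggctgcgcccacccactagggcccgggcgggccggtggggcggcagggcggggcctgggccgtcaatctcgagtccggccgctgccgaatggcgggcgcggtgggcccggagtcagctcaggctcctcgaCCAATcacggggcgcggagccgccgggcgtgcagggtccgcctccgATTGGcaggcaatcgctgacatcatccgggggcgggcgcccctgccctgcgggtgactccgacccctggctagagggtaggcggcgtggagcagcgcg
TM7SF2: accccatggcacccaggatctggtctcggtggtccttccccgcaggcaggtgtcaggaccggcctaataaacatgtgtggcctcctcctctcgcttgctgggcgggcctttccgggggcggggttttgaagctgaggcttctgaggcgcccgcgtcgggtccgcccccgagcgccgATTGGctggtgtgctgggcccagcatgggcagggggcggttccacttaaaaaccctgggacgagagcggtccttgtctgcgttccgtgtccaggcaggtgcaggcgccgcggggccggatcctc
LSS: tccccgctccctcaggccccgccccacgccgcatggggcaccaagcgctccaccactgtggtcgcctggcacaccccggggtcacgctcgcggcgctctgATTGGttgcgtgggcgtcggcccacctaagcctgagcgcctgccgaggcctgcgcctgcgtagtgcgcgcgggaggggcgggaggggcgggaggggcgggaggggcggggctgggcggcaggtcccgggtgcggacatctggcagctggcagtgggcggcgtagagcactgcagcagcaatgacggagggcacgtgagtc
NSDHL: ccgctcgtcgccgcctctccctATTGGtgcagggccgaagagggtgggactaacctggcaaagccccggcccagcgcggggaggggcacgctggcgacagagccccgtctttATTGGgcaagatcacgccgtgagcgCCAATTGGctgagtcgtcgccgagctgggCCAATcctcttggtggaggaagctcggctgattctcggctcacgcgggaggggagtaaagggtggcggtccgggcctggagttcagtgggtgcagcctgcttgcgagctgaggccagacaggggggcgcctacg
LBR: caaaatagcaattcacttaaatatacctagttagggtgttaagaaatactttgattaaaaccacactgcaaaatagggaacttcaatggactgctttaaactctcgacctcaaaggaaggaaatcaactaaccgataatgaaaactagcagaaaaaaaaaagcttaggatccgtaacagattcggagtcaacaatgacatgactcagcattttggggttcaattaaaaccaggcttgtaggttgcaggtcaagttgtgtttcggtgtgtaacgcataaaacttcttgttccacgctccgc
EBP: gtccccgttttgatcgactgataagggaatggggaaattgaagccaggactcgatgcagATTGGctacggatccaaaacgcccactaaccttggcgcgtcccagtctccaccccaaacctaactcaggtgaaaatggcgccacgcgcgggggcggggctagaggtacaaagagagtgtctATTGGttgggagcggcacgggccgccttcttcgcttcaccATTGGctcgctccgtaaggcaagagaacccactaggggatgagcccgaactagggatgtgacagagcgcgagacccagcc

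On either strand, CCAAT was found 5 times in the NSDHL window, in 1 place as overlapping copies on both strands, 4 times in that of MSMO1 and 3 times in that of EBP. HSD17B7 and the DHCR7 window shown held 2 copies each, LSS and TM7SF2 held 1, and CYP51A1 and LBR held 0. Thus 7 of 9 genes had at least 1 copy, against 34.6% of the 35116 RefSeq windows of this length. Of 7 other cholesterol synthesis genes with a window, 6 had a copy in at least 1 of their windows, so CCAAT was not particular to the 9. A gene with several windows was counted if any of them held a copy, whereas the shares of RefSeq windows are per window. The 5 genes called higher in the medium contrasts had 1 to 5 copies and the other 4 genes had 0 to 3, ranges that overlap. At least 4 copies, as in NSDHL and MSMO1, were present in 0.991% of all windows. The letters GGGCGG, a GC box, were found in 7 of 9 genes, against 45.0% of windows, with 7 copies in LSS and none in NSDHL or LBR. All 7 of the other cholesterol synthesis genes with a window also held a GC box. CACGTG, an E-box, occurred in LSS alone among the 9, against 7.26% of windows, and TCACNCCAC, a sterol regulatory element-like motif, in none of the 9, against 1.13%. The LBR window had a GC content of 38.3%, and the other 8 first windows had 58.3% or more. A match is a run of letters in a window and was not measured here as binding.

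**Figure D2:**
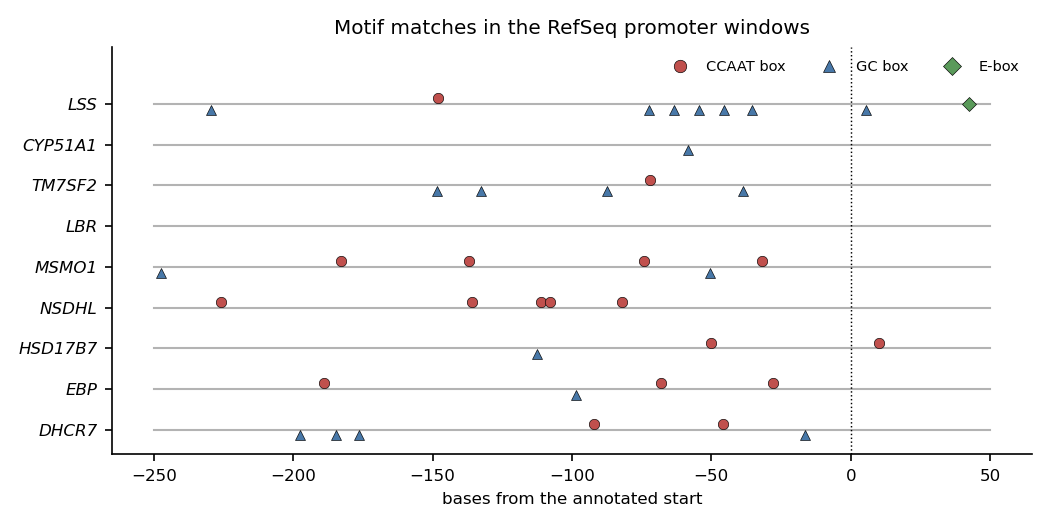
Positions of 3 motifs in the first RefSeq promoter window of each of the 9 genes. The x axis gives bases from the annotated start (dotted line), each grey line is 1 window, and circles, triangles and diamonds mark CCAAT, GC box and E-box matches on either strand. NSDHL and MSMO1 carry 5 and 4 CCAAT matches, and the LBR line carries no match.

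LSS, on the minus strand of chr21:47608055-47648738 (GRCh37, as for all gene positions that follow), stood at 75.5, 61.3 and 68.7 CPM in LG and at 108, 95.5 and 114 CPM in HG. The HG libraries all lay above the LG libraries. LSS rose by a log2 fold change of 0.65 (SE 0.12, FDR = 0.00113, edgeR quasi-likelihood), a 1.57-fold difference. LGV libraries gave 64.5, 59.9 and 73.7 CPM and HGV libraries 111, 113 and 129.5 CPM, which do not overlap, and the log2 fold change of HGV against LGV was 0.82 (SE 0.12, FDR = 6.53e-05). The VPA contrasts gave log2 fold changes of -0.041 in LG medium (95% interval -0.31 to 0.22) and 0.16 in HG medium (-0.078 to 0.39), neither of them called.

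CYP51A1, the only cytochrome P450 among the 9, lies on the minus strand of chr7:91714301-91764117 and was read at a low level, from 143 to 259 reads a library. It gave 8.15, 3.79 and 6.20 CPM in LG, 6.88, 7.42 and 6.97 CPM in HG, 5.43, 7.02 and 6.91 CPM in LGV, and 5.37, 3.40 and 6.24 CPM in HGV. Replicate 2 of LG and of HGV, the lowest in their groups, were also the deepest libraries of those groups. No comparison called the gene. The log2 fold change was 0.26 in HG against LG (95% interval -0.21 to 0.74) and -0.51 in HGV against HG (-0.95 to -0.068, FDR = 0.0573, edgeR quasi-likelihood), where the HGV libraries all lay below the HG libraries. The latter comparison passed the threshold with DESeq2 size factors, with 2 other tests, with a replicate block and without HGV replicate 3, the lowest FDR being 0.0127. Of its exonic windows of 50 bases, 19.2% occurred more than once in the genome, so that its count is uncertain. In GENCODE 44, coding gene models on the same strand that were not in the count table cover up to 68.2% of its exon length. Counting used another annotation, and whether that one held these models was not checked.

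The C14 reductases TM7SF2 and LBR were not called in the same set of comparisons. TM7SF2, on the plus strand of chr11:64879317-64883856, stood at 30.3, 14.2 and 31.1 CPM in LG, where replicate 2 was low, and at 40.3, 41.8 and 44.5 CPM in HG. The groups did not overlap, and the log2 fold change was 0.77 (SE 0.21, FDR = 0.0110, edgeR quasi-likelihood). Across the fits that left out 1 library it ranged from 0.51 to 0.96, with FDR up to 0.0450. LGV libraries gave 41.5, 28.5 and 29.4 CPM and HGV libraries 50.04, 63.3 and 61.3 CPM. TM7SF2 was thus highest in HGV, with log2 fold changes of 0.80 against LGV (SE 0.15, FDR = 0.000419) and 0.46 against HG (SE 0.12, FDR = 0.00548). The call in HGV against HG was lost in a single fit of the 12 libraries (FDR = 0.0758).

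LBR, on the minus strand of chr1:225589204-225616627, encodes the lamin B receptor, an inner nuclear membrane protein that also reduces sterols at C14. Its libraries gave 73.2, 82.8 and 92.2 CPM in LG and 90.5, 87.0 and 92.7 CPM in HG, which overlap, and the log2 fold change of 0.14 was not called (95% interval -0.12 to 0.40). In LGV it stood at 117, 109.6 and 117 CPM and in HGV at 135, 130.1 and 134 CPM. Every library with VPA lay above every library without it. LBR rose by a log2 fold change of 0.48 in LG medium (SE 0.12, FDR = 0.00542) and of 0.56 in HG medium (SE 0.092, FDR = 0.000316, edgeR quasi-likelihood), and the difference between these VPA responses was 0.096 (95% interval -0.22 to 0.41). Per kb of exon, TM7SF2 stood at 0.514 ± 0.208 of the level of LBR in LG and 0.785 ± 0.0342 in HG, and at 0.484 ± 0.0965 in LGV and 0.734 ± 0.102 in HGV (mean ± SD of the ratio, n = 3). The size of the ratio depends on the exon lengths used, 3408 bases for TM7SF2 and 5710 for LBR, which are the same in every group. The ratio ranged from 0.745 to 0.805 in HG and from 0.286 to 0.692 in LG, which do not overlap, and the ranges of LGV (0.422 to 0.595) and HGV (0.621 to 0.816) did not overlap either.

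MSMO1 showed the largest change of the 9 genes. It lies on the plus strand of chr4:166248819-166264316. LG libraries gave 31.9, 30.4 and 43.2 CPM and HG libraries 125, 101 and 122 CPM. The lowest HG library lay above the highest LG library, and the log2 fold change was 1.74 (SE 0.15, FDR = 2.15e-07, edgeR quasi-likelihood), a 3.34-fold difference. LGV libraries stood between them at 66.3, 71.6 and 56.8 CPM, a log2 fold change of 0.89 against LG (SE 0.15, FDR = 0.000242). HGV libraries gave 118, 134 and 129 CPM, which overlap with HG (log2 fold change 0.13, 95% interval -0.11 to 0.37) and lie above LGV (0.95, SE 0.12, FDR = 1.62e-05).

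The VPA response of MSMO1 in HG medium was lower than that in LG medium by the interaction estimate, at -0.75 on the log2 scale (SE 0.19, 95% interval -1.16 to -0.35), but this did not pass the threshold (unadjusted p = 0.000943, FDR = 0.123, edgeR quasi-likelihood). Of the 9 genes, 0 were called in this test, where 0.0427% of all genes were, and MSMO1 was the 1 member at an unadjusted p under 0.05. By edgeR's likelihood ratio test and by DESeq2's Wald test 1 member, MSMO1, was called. MSMO1 was also called without LG replicate 3, the highest of the LG libraries (FDR = 0.0265). All of these settings also called many more of all genes than the main test did, with the counts given in the closing section.

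NSDHL, on the plus strand of chrX:151999511-152038273, changed less. Its LG libraries gave 28.4, 20.2 and 24.0 CPM and its HG libraries 30.8, 31.1 and 34.8 CPM. The groups did not overlap, and the log2 fold change of 0.44 (SE 0.15, FDR = 0.0382, edgeR quasi-likelihood) was near the threshold. It was lost with a replicate block (FDR = 0.0644) and without HG replicate 1, 2 or 3 or LG replicate 2, with FDR up to 0.143. LGV libraries gave 20.4, 22.7 and 23.2 CPM and HGV libraries 30.4, 36.5 and 31.3 CPM, a log2 fold change of 0.55 (SE 0.13, FDR = 0.00216). VPA gave 0.020 in HG medium (95% interval -0.23 to 0.27) and -0.12 in LG medium (-0.43 to 0.19). Per kb of exon, MSMO1 stood at 1.03 ± 0.237 times NSDHL in LG, 2.52 ± 0.292 times in HG, 2.07 ± 0.310 times in LGV and 2.73 ± 0.154 times in HGV (mean ± SD, n = 3). The size of this ratio also depends on the exon lengths used.

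HSD17B7, on the plus strand of chr1:162760492-162782613, was read at 10.4, 10.9 and 8.48 CPM in LG and 10.8, 10.2 and 12.9 CPM in HG. These overlap, and the log2 fold change of 0.21 was not called (95% interval -0.15 to 0.57). In LGV it gave 13.1, 15.5 and 15.8 CPM, above all LG libraries, with a log2 fold change of 0.59 (SE 0.16, FDR = 0.00867, edgeR quasi-likelihood). HGV libraries gave 12.6, 14.1 and 12.4 CPM and overlap with HG (0.21, 95% interval -0.088 to 0.50). The difference between the VPA responses was -0.37 (95% interval -0.82 to 0.074) and was not called. Of its exonic windows of 50 bases, 46.9% occurred more than once in the genome, and its pseudogene HSD17B7P2 held 79 to 168 reads a library, with means of 2.72 CPM in LG, 3.53 CPM in HG, 3.96 CPM in LGV and 3.95 CPM in HGV. How reads were split between the gene and its copy was not tested, so that its values are uncertain.

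EBP, on the plus strand of chrX:48380187-48387104, was the member that fell with VPA in both media. LG libraries gave 43.1, 41.2 and 43.0 CPM and LGV libraries 32.7, 32.6 and 29.9 CPM. The log2 fold change was -0.41 (SE 0.11, FDR = 0.0105, edgeR quasi-likelihood), a 1.33-fold difference. This call was lost with library size in place of TMM (FDR = 0.120) and without LGV replicate 3 (FDR = 0.0844). HG libraries gave 44.03, 51.6 and 55.4 CPM and HGV libraries 28.3, 38.7 and 33.0 CPM, a log2 fold change of -0.60 (SE 0.13, FDR = 0.00305). Every library with VPA thus lay below every library without it. HG against LG gave 0.27 (95% interval -0.0066 to 0.55, FDR = 0.141), with groups that did not overlap, and the difference between the VPA responses was -0.18 (95% interval -0.55 to 0.20). In GENCODE 44, a coding gene model on the same strand that was not in the count table covers 36.4% of the exon length of EBP. Whether the annotation used for counting held this model was not checked.

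DHCR7, which makes cholesterol from 7-dehydrocholesterol, lies on the minus strand of chr11:71139239-71163914. It gave 79.8, 58.8 and 72.9 CPM in LG, 122, 122 and 133 CPM in HG, 72.9, 77.0 and 74.4 CPM in LGV, and 121, 123 and 130.2 CPM in HGV. All libraries from HG medium lay above all libraries from LG medium, with or without VPA. The log2 fold change was 0.86 in HG against LG (SE 0.13, FDR = 0.000141) and 0.72 in HGV against LGV (SE 0.11, FDR = 9.60e-05, edgeR quasi-likelihood). VPA gave 0.097 in LG medium (95% interval -0.17 to 0.37) and -0.012 in HG medium (-0.22 to 0.20).

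**Figure D3:**
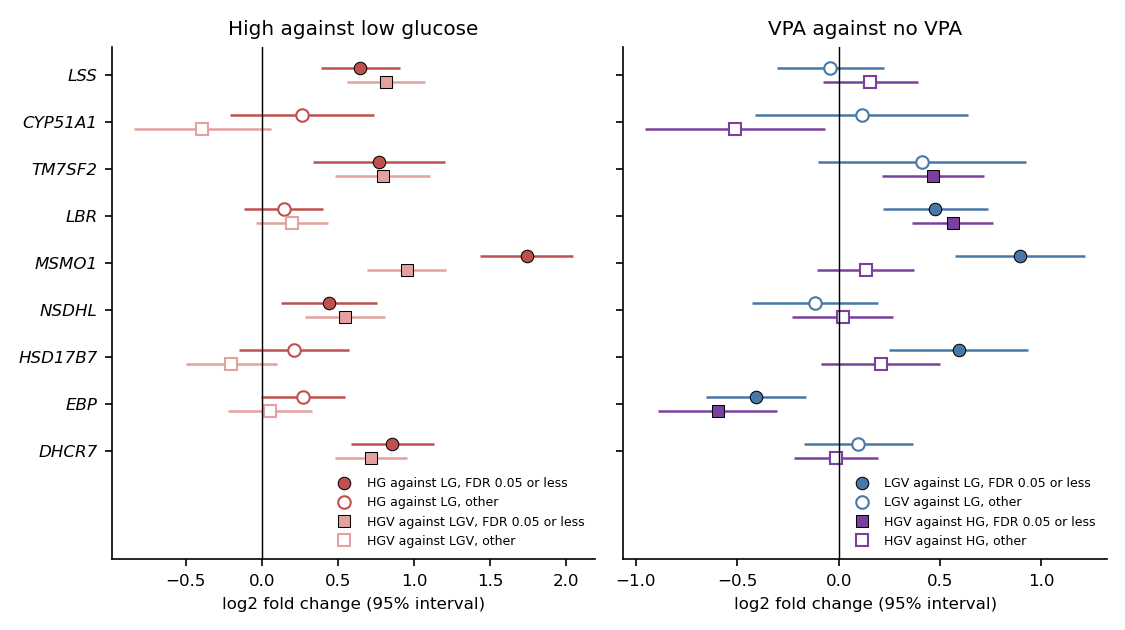
Log2 fold changes of the 9 genes with 95% intervals on the x axis, for high against low glucose (left) and VPA against no VPA (right), with 3 libraries in each group. Filled marks passed FDR ≤ 0.05 and open marks did not. On the left MSMO1 lies farthest to the right at 1.74 in HG against LG, and on the right EBP is at -0.41 and -0.60 while LBR is at 0.48 and 0.56.

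Levels were compared between genes per kb of exon. The length was the union of the exons in GENCODE 44, which was not the annotation used for counting. It joins the exons of all transcript models of a gene, whether or not these cells use them. For TM7SF2 it came to 3408 bases in 4 blocks. The order of the genes within a group depends on these lengths, and other lengths were not tested. In LG EBP was highest at 24.0 ± 0.628 CPM per kb (SD, n = 3) and did not overlap with LBR, the next gene at 14.5 ± 1.66. From LBR through MSMO1, NSDHL, DHCR7 and LSS to TM7SF2 at 7.38 ± 2.80, each gene overlapped with the next. HSD17B7 (2.07 ± 0.264) and CYP51A1 (1.45 ± 0.524) were lowest and overlapped with each other. They also had the largest shares of repeated exonic windows (46.9% and 19.2%), against at most 5.59% in the other members. Reads from such windows can be lost at the map quality threshold of the counting. The effect on their levels was not tested, so their rank is uncertain in every group. In HG MSMO1 was first at 40.7 ± 4.60 CPM per kb, followed without overlap by EBP at 28.5 ± 3.28 and DHCR7 at 18.3 ± 0.907. NSDHL, LBR and LSS overlapped in turn, and TM7SF2, HSD17B7 and CYP51A1 came last in this order with no overlap between neighbours.

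MSMO1 was also first in the VPA groups, at 22.8 ± 2.62 CPM per kb in LGV, where it overlapped with LBR (20.0 ± 0.727), and at 44.6 ± 2.88 in HGV, where it did not (LBR 23.3 ± 0.464). EBP was the third gene in both, at 17.95 ± 0.879 in LGV and 18.8 ± 2.95 in HGV. In LGV NSDHL, DHCR7, TM7SF2 and LSS followed, each overlapping with the next, and in HGV EBP, DHCR7, TM7SF2, NSDHL and LSS did so. HSD17B7 and CYP51A1 were lowest in both, without overlap and with the limit of repeated windows given above. The summed CPM of the 9 genes, a share of all reads, was 323 to 389.8 in LG, 547.5 to 616 in HG, 424 to 434 in LGV and 611.5 to 667 in HGV. MSMO1 made up 9.62% ± 1.36 of this sum in LG, 20.0% ± 1.61 in HG, 15.2% ± 1.78 in LGV and 19.7% ± 0.647 in HGV (SD, n = 3). Without MSMO1 the sum was 293 to 349 CPM in LG and 446.5 to 494 CPM in HG, which do not overlap.

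**Figure D4:**
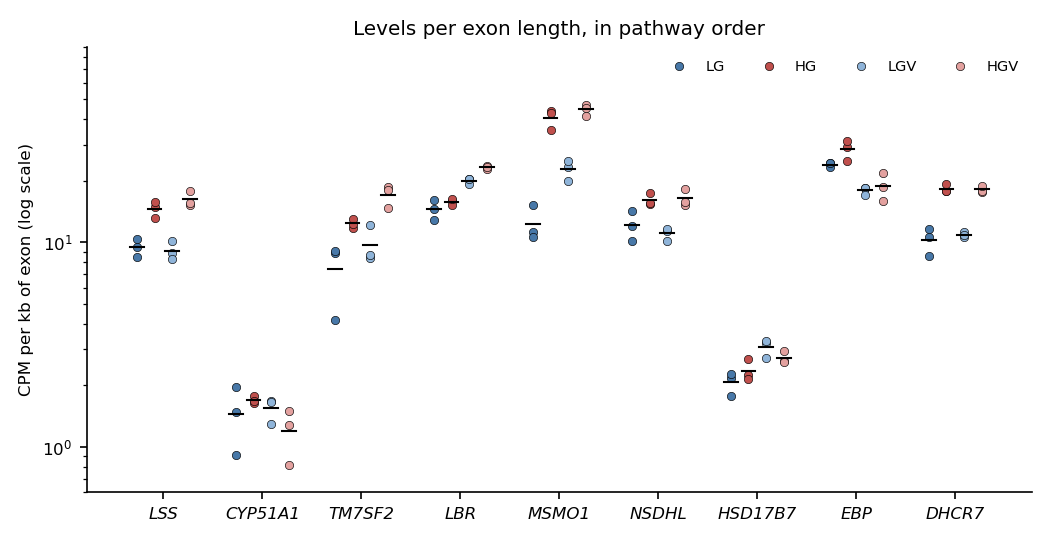
CPM per kb of exon of the 9 genes in pathway order on a log scale, with 1 point per library (n = 3 for each of LG, HG, LGV and HGV) and a line at the group mean. MSMO1 reaches 40.7 and 44.6 in HG and HGV, and CYP51A1 and HSD17B7 stay at or below 3.30 in every library.

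The earlier steps, from acetyl-CoA to squalene epoxide, had 9 of 10 genes higher and 0 lower in HG against LG, with a median log2 fold change of 1.06. Over all genes 12.0% were higher and 12.7% lower. HMGCS1, the HMG-CoA synthase, changed most (1.28, SE 0.14, FDR = 4.99e-06), and ACAT2, the acetoacetyl-CoA thiolase, least among those called (0.45, SE 0.12, FDR = 0.0116). The ACAT2 call was lost without HG replicate 3 (FDR = 0.0577). PMVK, the phosphomevalonate kinase, was not called (0.19, FDR = 0.419, edgeR quasi-likelihood). HGV against LGV gave 8 of 10 higher and 0 lower (21.2% and 19.5% of all genes). In LG medium VPA gave 3 higher and 2 lower (21.7% and 19.9% of all genes), counts that did not hold: none was called without LGV replicate 2, without LGV replicate 3 or at an FDR of 0.01, 1 was called without LG replicate 1, 0 higher and 3 lower without LG replicate 2, 2 higher and 0 lower without LG replicate 3, and 3 higher and 0 lower with upper quartile factors or library size. In HG medium 1 rose (25.8% of all genes), the mevalonate kinase MVK (0.44, FDR = 0.00457), and 1 fell (20.2%), ACAT2 (-0.83, FDR = 2.98e-05). SC5D, the sterol C5 desaturase, was not called in HG against LG, at 0.35 (FDR = 0.108; 0.0496 without LG replicate 3). SC5D rose with VPA by 0.86 in LG medium (FDR = 5.90e-05). In HG medium it gave 0.59 (FDR = 0.0170), with groups that overlap and a call that was lost without HG replicate 2 or HGV replicate 3, with FDR up to 0.0878.

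**Figure D5:**
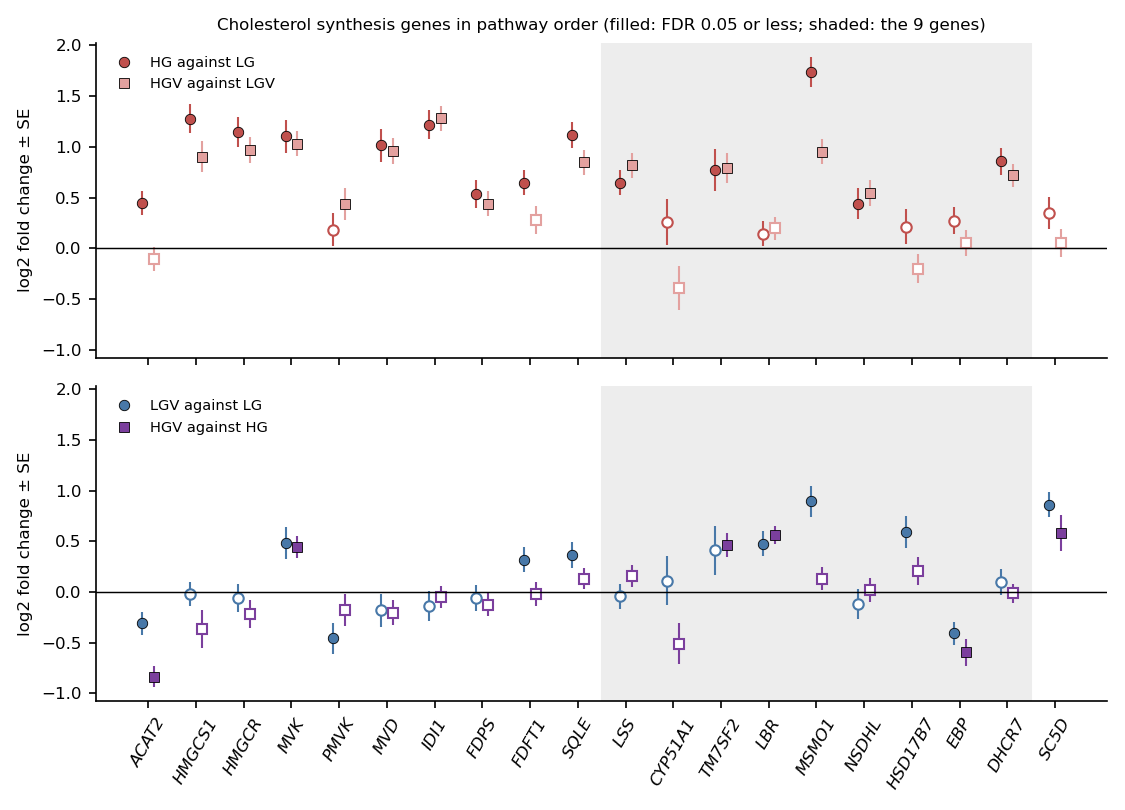
Log2 fold changes (± SE) of the cholesterol synthesis genes along the pathway, for the medium contrasts (top) and the VPA contrasts (bottom), from fits with 3 libraries in each group. Filled marks passed FDR ≤ 0.05 and the shaded stretch holds the 9 genes described here. In the top panel 9 of the 10 genes before the shaded stretch and 5 of the 9 within it are filled for HG against LG.

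Among 7 redox partners and scaffold proteins of the late enzymes, 2 rose and 0 fell in HG against LG (12.0% and 12.7% over all genes). These were C14orf1 (ERG28, a scaffold for the C4 demethylation enzymes) at 0.85 (SE 0.14, FDR = 0.000329) and CYB5B, a cytochrome b5, at 0.46 (SE 0.12, FDR = 0.00779, edgeR quasi-likelihood). C14orf1 stood at 25.4 ± 3.21 CPM in LG, 44.9 ± 3.30 in HG, 36.3 ± 2.09 in LGV and 57.1 ± 9.25 in HGV (SD, n = 3). It was also called higher in HGV against LGV (0.63, FDR = 0.000932) and in LGV against LG (0.53, FDR = 0.00483), whereas its call in HGV against HG (0.34, FDR = 0.0419) was lost under 8 of 16 alternatives. With VPA 3 of the 7 rose and 0 fell in LG medium (21.7% and 19.9% over all genes). In HG medium 4 were called higher and 0 lower (25.8% and 20.2%), from CYB5B (0.46, FDR = 0.00853) to CYB5R3, the cytochrome b5 reductase (0.33, FDR = 0.0200). This count was 2 without HG replicate 1, without HG replicate 3 or at an FDR of 0.01, and 7 with library size only. HGV against LGV had 3 higher and 0 lower (21.2% and 19.5% of all genes), and 1 and 0 without LGV replicate 3 or at an FDR of 0.01. POR, which passes electrons to CYP51A1, had log2 fold changes from -0.086 to 0.20 and was not called with TMM, and with library size only it was called in HGV against HG (FDR = 0.0181).

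Of 9 genes of SREBP control and LDL uptake, 1 rose in HG against LG, SREBF2, the gene of SREBP-2 (0.67, SE 0.12, FDR = 0.000638, edgeR quasi-likelihood), where 12.0% of all genes were higher. Another 4 were called lower (12.7% of all genes), with INSIG2, which retains SREBP in the endoplasmic reticulum, at -0.57 (SE 0.16, FDR = 0.0147). The 4 lower calls became 0 without HG replicate 3 or at an FDR of 0.01, 1 without HG replicate 1, LG replicate 1 or LG replicate 2, and 2 with upper quartile factors or library size. HGV against LGV gave 2 higher and 3 lower (21.2% and 19.5% of all genes). SREBF2 (0.81, FDR = 7.03e-05) was again higher, and INSIG2 (-0.74, FDR = 0.000284) and NPC1 (-0.50, FDR = 0.00372) were again lower. These calls held under all 16 alternatives. SCAP (-0.34, FDR = 0.0255, edgeR quasi-likelihood) was lower too, a call lost under 6. In HGV against HG 3 were called lower (20.2% of all genes), with SREBF1, the gene of SREBP-1, at -0.78 (FDR = 0.000206), and 1 higher (25.8%), the sterol carrier STARD4 (0.47, FDR = 0.0360), whose groups overlap. The STARD4 call was lost without HG replicate 2, HG replicate 3, HGV replicate 1 or HGV replicate 3, with FDR up to 0.155, and 2 genes in all were called without HG replicate 3 or HGV replicate 1.

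For efflux, esterification and LXR genes, 1 of 8 tested was called higher in HG against LG (12.0% of all genes), the sterol transporter ABCG5 (0.65, FDR = 0.0168, edgeR quasi-likelihood). This call was lost without HG replicate 1, HG replicate 3 or LG replicate 1, with FDR up to 0.0627. Another 2 were lower (12.7% of all genes), with MYLIP, an LXR target that degrades the LDL receptor, at -0.78 (FDR = 0.00764, and 0.0562 without HG replicate 3). In HGV against HG 3 of 9 were called higher and 6 lower (25.8% and 20.2% of all genes), with the same counts under all 16 alternatives. The 3 include ABCG1, described below, whose call is not read as a result. The other higher genes were MYLIP (0.97, FDR = 0.000193) and SOAT1 (0.79, FDR = 0.000105, edgeR quasi-likelihood). The lowest was ABCG8, the partner of ABCG5 (-1.27, FDR = 6.87e-06). The highest was ABCG1, an exporter of sterols to HDL, which had 1 to 4 reads a library in HG and 34 to 69 reads in HGV and passed the filter on low counts through HGV alone, so that no fold is given.

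The hepatocyte markers had 2 of 8 higher and 0 lower in HG against LG (12.0% and 12.7% of all genes). These were FGB, a fibrinogen chain (0.88, FDR = 0.000836), and APOA1, the main apolipoprotein of HDL (0.48, FDR = 0.00991, edgeR quasi-likelihood). LGV against LG gave 0 higher and 5 lower (21.7% and 19.9% of all genes). HGV against LGV gave 4 higher and 0 lower (21.2% and 19.5% of all genes), and 2 higher without HGV replicate 3 or LGV replicate 3. In HGV against HG 1 was higher (25.8% of all genes), TTR, transthyretin (0.51, FDR = 0.00914), and 2 were called lower (20.2%). Of these, FGB (-0.50, FDR = 0.0353) lost its call without any 1 of HG replicates 1 and 3 and HGV replicates 1, 2 and 3. Of the 3 marker genes of other cell types, COL1A1 (2.52, FDR = 8.96e-05) and CDH5 (1.65, FDR = 0.00133) rose in HGV against HG, where 25.8% of all genes did. They reached means of only 1.97 and 1.29 CPM in HGV, and VWF was not called (0.18, FDR = 0.576, edgeR quasi-likelihood).

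The genes outside these lists whose group means were nearest to each member were found among 16333 genes by the root mean square difference of centred log2 CPM over the 4 groups, with a pseudocount of 0.5 CPM that shrinks the differences of genes read at a low level. The value without a pseudocount, added after the data were seen, is given after it for each gene. That value takes the log2 of the group mean CPM in place of the group mean of log2 CPM, so the pseudocount is not the only difference. The search itself was not repeated without the pseudocount. For MSMO1 the nearest were PIK3IP1 (0.0800, then 0.141) and FLRT3 (0.159, then 0.0821). PIK3IP1 had means of 2.40 CPM in LG, 9.35 in HG, 4.53 in LGV and 11.0 in HGV. TM7SF2 was nearest to TTC5 (0.0101, then 0.00894) and ARV1 (0.0313, then 0.0588), LSS to RP11-656D10.3 (0.0274, then 0.109) and BBS2 (0.0285, then 0.0282), and DHCR7 to SCARNA9 (0.0259, then 0.0565) and KNSTRN (0.0281, then 0.0351). CDK6 (0.0111, then 0.0125) and CDKL1 (0.0176, then 0.0771) were nearest to EBP, and CDK6 stood at 149.5 CPM in LG, 178 in HG, 113.5 in LGV and 119.8 in HGV. HSD17B7 was nearest to TTN-AS1 (0.00862, then 0.0840) and TTC33 (0.0127, then 0.0143), and CYP51A1 to ZNF254 (0.0270, then 0.0483) and a gene known by a clone number (0.0289, then 0.164). In LSS, DHCR7, HSD17B7 and MSMO1 the second match was nearer than the first by the value without a pseudocount. For LBR and NSDHL this was so as well, and their first match moved most without the pseudocount. RP11-216B9.6 moved from 0.0117 to 0.449 from LBR without it, with means of 0.151 CPM in LG and 0.537 CPM in HGV, and RNU6-722P moved from 0.00818 to 0.452 from NSDHL, with 0.214 CPM in LG and 0.472 CPM in HG. Their other matches were IQCG for LBR (0.0151, then 0.0924) and RP11-423H2.1 for NSDHL (0.0157, then 0.0461). Among the members themselves LSS and DHCR7 were closest (0.0842), and the nearest member to MSMO1, TM7SF2, was at 0.325.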

How the data were processed

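Poly(A) RNA of HepG2 cells was made into directional libraries and sequenced as 50 nt single-end reads. The authors trimmed the reads, aligned them with STAR to GRCh37 (Ensembl annotation) and counted reads per gene with featureCounts at a map quality threshold of 10, and the deposited raw counts leave out genes averaging fewer than 10 reads. Whether counting used strand is not given in the sources used here. Each comparison was fitted in edgeR 4.0.16 (R 4.3.3) by the quasi-likelihood test on the libraries of its own groups, with TMM factors, a mean count of at least 10 and Benjamini-Hochberg adjustment (FDR ≤ 0.05), and the interaction on the 12 libraries. The script was tested on simulated data. Exon lengths and overlaps came from GENCODE 44 on GRCh37, which placed 97.5% of genes, and promoters from RefSeq GRCh38.p14, whose coordinates belong to that build alone. GENCODE 44 was not the annotation on which the authors counted. Named were the 9 members, the genes of each other list with the largest and smallest log2 fold changes among those called in HG against LG and in HGV against HG, and the 2 nearest genes to each member. PMVK, POR, SOAT1, NPC1 and SCAP were named after their values were seen. Members and lists were chosen with earlier results of these data known, and some genes of the lists are not reported here. Alternatives were other scalings, tests, filters and thresholds, a replicate block, and leaving out each library.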

Additional observations from a re-analysis of the deposited data

How the results depend on the processing

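Of 765 recomputed values of the 9 genes, 715 kept their direction and side of the threshold, 11 lost the call, 13 gained it and 26 changed sign. At an FDR of 0.01, 3 of the 9 genes were called in HG against LG, and over all genes 1852 were called there and 4263 in HGV against LGV (3813 and 6604 at 0.05). Leaving out 1 library gave 1933 (without LG replicate 1; 2076 without HG replicate 3) to 5338 genes in HG against LG and 4 to 5 of the 9 genes. For the interaction of glucose and VPA, where 7 genes were called, 1 was called with library size only, 202 by the likelihood ratio test, 161 by DESeq2's Wald test, 13 with the replicate block, 1 at an FDR of 0.01 and 1 to 217 (217 without LG replicate 2, 67 without LG replicate 3, 21 without LGV replicate 1, and 1 or 2 without any of the other 9) when 1 library was left out. Among the 9 genes this was 1 by the likelihood ratio test, 1 by the Wald test and 0 to 1 without 1 library. The cause was not tested.

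The changes of sign concerned values that were not called. With upper quartile factors and with library size only, LSS in LGV against LG was 0.042 and 0.12 and DHCR7 in HGV against HG 0.047 and 0.11, and with library size only NSDHL in LGV against LG was 0.039. NSDHL in HGV against HG was -0.016 with DESeq2 size factors and -0.016 by the Wald test. Without 1 library, the log2 fold changes in LGV against LG ranged from -0.12 to 0.026 for LSS, -0.24 to 0.0031 for NSDHL, -0.14 to 0.37 for CYP51A1 and -0.022 to 0.19 for DHCR7. In HGV against HG they ranged from -0.061 to 0.076 for NSDHL and -0.053 to 0.029 for DHCR7, in HGV against LGV from -0.066 to 0.16 for EBP, and in the interaction from -0.12 to 0.32 for TM7SF2 and -0.0056 to 0.23 for NSDHL.

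Scaling by library size moved the median log2 fold change of all genes in HG against LG from 0.011 to 0.11, in LGV against LG from -0.0057 to 0.16 and in HGV against HG from 0.025 to 0.15. In HG against LG 1854 genes were higher and 1959 lower with TMM, 2458 and 1366 with upper quartile factors, and 2171 and 1297 with library size only. In LGV against LG 3461 were higher and 3177 lower with TMM, 4500 and 1958 with library size only, and in HGV against HG 4184 and 3272, and 5182 and 2424. For HGV against LGV the split was 3444 and 3160 with TMM and 4126 and 2375 with upper quartile factors. LSS in HGV against HG passed the threshold with library size only (FDR = 0.0474), and LBR in HGV against LGV with upper quartile factors or library size (lowest FDR = 0.0403, edgeR). The correlations of the deviations of same-numbered libraries (numbers 1, 2 and 3) were -0.26, -0.16 and 0.0046 in HG against LG, 0.0025, 0.38 and -0.23 in LGV against LG, 0.31, 0.23 and -0.22 in HGV against HG, and 6.5e-05, 0.25 and 0.060 in HGV against LGV. In no comparison were all above 0.1, so the numbers were not taken as pairs. With the replicate block 4 of the 9 genes were higher and 0 lower in HG against LG (11.4% and 10.3% of all genes), 4 and 1 in LGV against LG (22.8% and 21.0%), 2 and 2 in HGV against HG (28.1% and 22.7%) and 5 and 0 in HGV against LGV (23.3% and 21.8%). TM7SF2 in LGV against LG passed with it (lowest FDR = 0.0228) and without LG replicate 3. CYP51A1 and HSD17B7 rested on 143 to 259 and 277 to 592 reads a library.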
